A study of Homo sapiens with 52 samples.

Results

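The clustered replication-dependent histone genes encode the bulk of the proteins that package DNA, the core histones H2A, H2B, H3 and H4 and the linker histones of the H1 family. Their RNA was followed in WI-38 fibroblasts driven into senescence in 4 ways. The members were chosen by symbol alone, as H1-1 to H1-6 and as every H2AC, H2BC, H3C and H4C gene with a number. The rule uses no measured value, though it was set with earlier results of these data known. There were 66 such genes among the 59408 listed, 6 of H1, 16 of H2A, 17 of H2B, 13 of H3 and 14 of H4. By the RefSeq annotation of GRCh38.p14, 55 of them lie on chromosome 6 and 11 on chromosome 1.

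Cells need new histones when they copy their DNA, and these genes are switched on in S phase. NPAT, a coactivator that cyclin E and CDK2 phosphorylate, turns them on at the histone locus body. Their messages are unusual because they normally end in a short stem-loop in place of a poly(A) tail. SLBP, the stem-loop binding protein, holds the stem-loop through processing, export and translation, and the messages are destroyed when DNA synthesis stops. Some of these genes can also yield polyadenylated messages from sites further downstream, which are known from cells that have stopped dividing. Variant histones such as H2AZ1 and H2AJ come from genes outside the clusters and are made through the whole cell cycle.

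WI-38 is a line of wild-type fibroblasts from human embryonic lung that divides a limited number of times. PMD-Sen cells were treated with 0.009% sodium dodecyl sulfate (SDS), a detergent that damages the plasma membrane, Ca2+-Sen cells with 75 mM KCl, which depolarizes the membrane, and DDR-Sen cells with 250 nM doxorubicin (DXR), which breaks DNA. Each treatment lasted 24 h, and cells were collected on day 0, at the end of it, and then daily to day 4 and on days 6, 8 and 16. RS cells had been passaged to replicative senescence, at a population doubling level of about 52, and Untreated cells were young cells at a level of 32 to 46. These are 26 groups of 2 libraries each, described by the study as independent samples, and no allele or agent other than these is given. The labels give Untreated no day, so time in culture cannot be told apart from treatment. As RNA was taken from whole cultures, fewer cells that express a gene and less RNA per cell cannot be told apart either.

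All 11 fibroblast markers had a mean level of at least 10, from 828 for S100A4 to 254438 for FN1 (fibronectin). The level is a normalized read count, the reads of a gene divided by a factor that puts the libraries on 1 scale. Where a pair of levels is given for a group, the library with fewer counted reads comes first. Of 15 markers of other cell types, 7 reached a mean of 10 (EPCAM, KRT8, KRT19, PECAM1, VWF, TUBB3 and DES), with KRT19 the most abundant at 1519. The sum of these 15 was 1255 to 3956 in the 50 libraries where every one of them was known, against 549571 to 1334535 for the fibroblast markers in 20 such libraries. CD3E, which marks T cells, had a mean of 0.274. Of the endothelial markers CDH5 had a mean of 0.380, but VWF had 57.1, with 24.8 to 133 in the libraries, and PECAM1 14.5, with 0 to 161. The part of other cell types in the histone values was not tested.

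The Untreated libraries were the smallest, with 15.3 and 19.0 M counted reads (M for mega), and the RS libraries had 47.1 and 55.5 M. Because both Untreated libraries enter all 25 comparisons with Untreated cells, their error is shared by all of those. By chi-square the RS libraries also differed most from each other. The median over genes of their chi-square was 21.4 times what counting error gives, against 2.21 to 8.58 in the other groups and 3.45 in Untreated. RS results are therefore also given without each of its libraries. At the same relative spread this measure grows with read depth, so the value of the small Untreated libraries is no sign of a small spread. Their summed levels of the members were 6073 and 4958. P-values measure only the spread between 2 samples a group, pooled over 26 groups.

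The stem-loop marks the messages of replication-dependent histone genes. Its letters, GGNNCT for the 5' arm, TTTN for the loop and AGNNCC for the 3' arm with no bases between them, were found on the transcript's strand in GENCODE v29 transcripts of 25 of the 62 members that have a transcript there, against 80 of all 58676 genes of that annotation, or 0.136%. The 80 are the 25 members, 3 histone genes that the deposited tables do not list under their current symbols, H2AC25, H2BC26 and H4C16, and 52 other genes. Those of the other members do not hold the letters, which says nothing of the gene itself, since the v29 transcript of H2BC12, for example, is 381 bases long and 378 of these are coding. The 25 members share 5 sequences, shown here by the first named member of each with the paired arms in capitals and the loop in lower case.
H2AC6: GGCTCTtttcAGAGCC
H4C8: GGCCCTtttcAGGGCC
H2BC4: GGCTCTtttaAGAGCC
H4C9: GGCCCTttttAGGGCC
H2AC11: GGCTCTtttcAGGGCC
The H2AC6 form was shared by 13 members of H2A, H2B and H3. The H2BC4 form was found in 4 members, 3 of H2B and H3C8, the H4C8 form in 4 members and the H4C9 form in 3, all of these of H4. In H2AC11 alone 5 of the 6 pairs of bases are A with T or G with C. The annotated transcripts of 19 members run more than 100 bases past the stem-loop, which a message cut at the stem-loop would not. These 19 had a median level of 114 per kb of coding sequence, and the 43 members without such a transcript one of 3.87. Among the 43 are H2BC12 and H1-2, whose v29 transcripts of 381 and 642 bases hold little more than the 378 and 639 coding bases. A member without such a transcript therefore need not have a message cut at the stem-loop. Here and below a level per kb is divided by coding bases alone, so the length of the rest of a transcript is not allowed for. The v29 transcript of H2BC21, for example, is 2194 bases long, of which 378 are coding.

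Promoters were taken from RefSeq on GRCh38.p14 as 250 bases before to 50 bases after the start, and 61 members had one. TATAAA, the TATA box, was found on either strand in 67.2% of them and in 11.95% of all 27305 promoters. CCAAT was found in 85.2% against 35.7%, and ATTTGCAT, the octamer that POU2F1 (Oct-1) binds in H2B promoters, in 42.6% against 1.80%. The octamer was in 14 of 17 H2B and 11 of 15 H2A promoters, in 1 of 11 H3 promoters and in none of the 12 H4 or 6 H1 promoters. The promoters of 3 H2B genes are shown because they span the range of response, H2BC12 and H2BC18 being higher than Untreated in all 25 comparisons (H2BC18 in 22 without the larger Untreated library) and H2BC9 in none. The letters of the 3 motifs are in capitals, on either strand.
H2BC12, chr6:27146809-27147108, minus strand: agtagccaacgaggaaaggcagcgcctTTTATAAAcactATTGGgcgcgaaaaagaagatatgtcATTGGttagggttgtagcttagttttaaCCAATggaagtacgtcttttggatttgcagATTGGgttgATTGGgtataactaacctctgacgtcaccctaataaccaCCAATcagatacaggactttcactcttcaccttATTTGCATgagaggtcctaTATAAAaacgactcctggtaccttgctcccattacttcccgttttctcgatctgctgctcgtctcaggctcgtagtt
H2BC18, chr1:149812321-149812620, minus strand: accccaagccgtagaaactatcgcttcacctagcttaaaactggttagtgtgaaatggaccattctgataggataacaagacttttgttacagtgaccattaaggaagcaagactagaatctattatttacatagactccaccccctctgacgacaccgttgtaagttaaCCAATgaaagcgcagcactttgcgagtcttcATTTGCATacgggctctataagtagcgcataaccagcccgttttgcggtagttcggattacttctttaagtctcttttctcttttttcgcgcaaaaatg
H2BC9, chr6:26251364-26251663, plus strand: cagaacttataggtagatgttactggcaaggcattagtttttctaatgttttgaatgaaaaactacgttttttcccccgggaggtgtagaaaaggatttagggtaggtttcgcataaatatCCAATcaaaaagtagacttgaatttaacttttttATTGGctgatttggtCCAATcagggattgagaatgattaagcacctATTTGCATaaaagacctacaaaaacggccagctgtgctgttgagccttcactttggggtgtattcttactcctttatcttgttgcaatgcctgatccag
All 3 hold CCAAT and the octamer, and H2BC12 alone holds TATAAA. A match is a description of the letters, not of a site in use.

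A few genes carried most of the counted histone reads. How fully messages that end at the stem-loop were counted is not known. The shares and summed levels below are therefore of counted reads, not of all histone RNA. H2AC6, H2BC12 and H1-2 held 26.5%, 21.7% and 14.7% of the reads of all 66 members. By family the share was 42.1% for H2B, 28.7% for H2A, 14.8% for H1, 11.8% for H4 and 2.53% for H3. Of the 66 members 23 reached the mean of 10 normalized counts required for testing, 1 of H1, 5 of H2A, 10 of H2B, 2 of H3 and 5 of H4. These 23 held 99% of the reads. Per kb of coding sequence the tested members had levels from 45.4 to 8399, with a median of 342, and the others from 0 to 30.5, with a median of 3.46. Because a member can pass the requirement through a group where it is high, counts over the 23 describe them and are no support for a direction. The Untreated mean of 5 of them (H2BC18, H2AC18, H4C15, H2BC6 and H4C12) was under 10. Among the 18 whose Untreated mean was at least 10, 345 of 449 tests against Untreated were higher and 4 lower, where 2.61% to 26.7% of all genes were higher and 2.55% to 32.5% lower by comparison.

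The summed level of the members rose from 5516 ± 788 (SD, n = 2) in Untreated to 18591 ± 1488 in RS and 20493 ± 2016 on day 0 of DDR-Sen. In DDR-Sen the sum then fell to 11104 ± 35.9 on day 2 and stood at 16519 ± 344 on day 16. For days 0, 6 and 16 it was 8121 ± 754, 14548 ± 36.5 and 13566 ± 1042 in PMD-Sen, and in Ca2+-Sen 8636 ± 345, 11551 ± 209 and 9956 ± 291. As RPM, reads scaled to the counted reads of the library, the members made up 179 ± 27.3 in Untreated, 601 ± 87.6 in RS and 677 ± 65.6 on day 0 of DDR-Sen. Every one of these groups lay above both Untreated libraries.

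**Figure D1:**
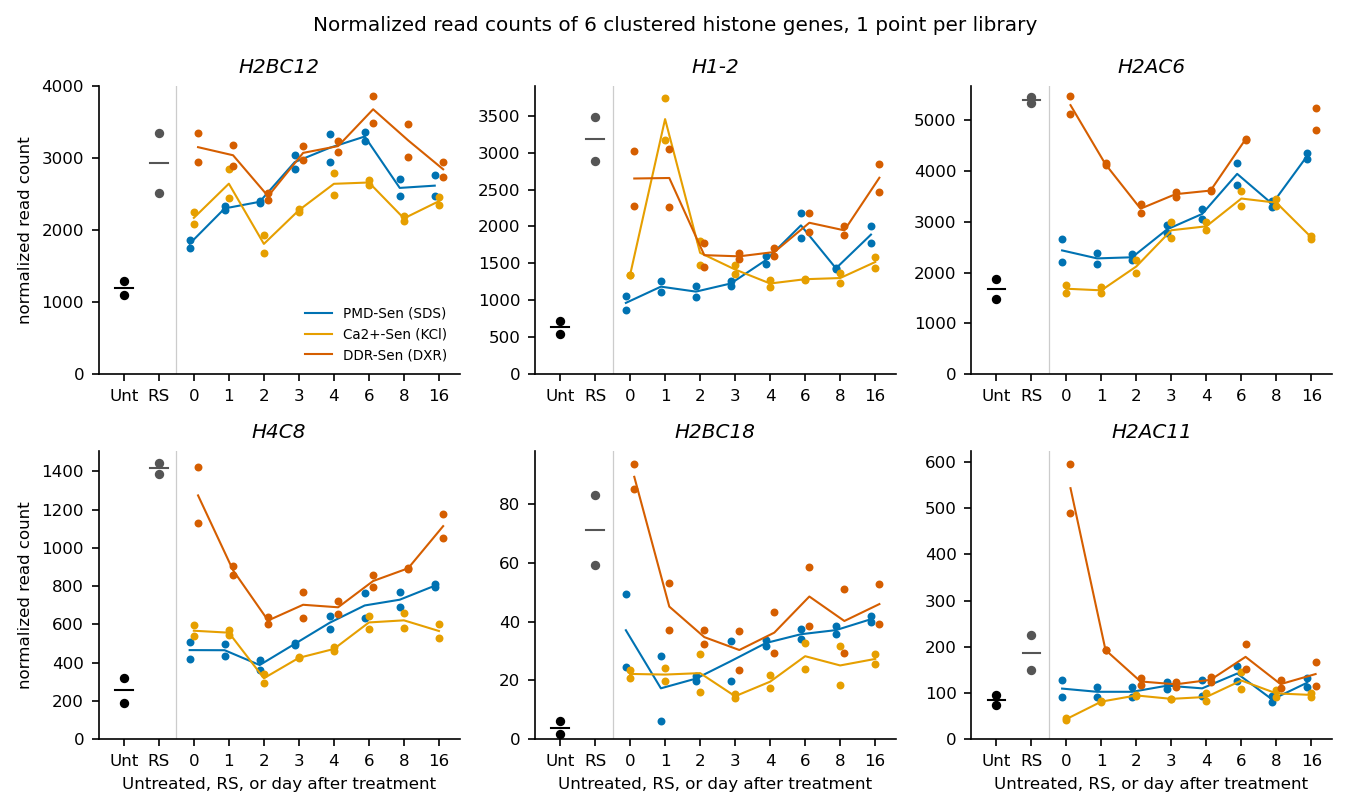
Normalized read count (y axis, linear, from 0) of 6 histone genes in Untreated, RS and on each day after treatment (x axis), 1 point per library, with lines through the mean of each pair and short bars for Untreated and RS. H2BC12, H1-2 and H2BC18 lie above both Untreated libraries in all 50 others, while H2AC11 peaks on day 0 of DDR-Sen at 596 and 490.1, and the line of H2AC6 is broken on day 8 of DDR-Sen, where its reads could not be worked out.

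The first question was which of these genes change in each form of senescence. Differences were tested with limma on log2(normalized count + 1), a scale that understates the change of low genes, and calls were made where the adjusted p was under 0.05. Each log2 fold change is given with its standard error (SE). Over the 25 comparisons with Untreated, 408 of 574 tests of members were higher and 4 lower. The share of all tested genes called higher was 2.61% to 26.7% in these comparisons. H1-2, H2BC12, H4C9 and H2BC18 were higher in all 25 comparisons, 14 members in at least 20, and H2BC9 and H4C15 in none. Without the larger Untreated library H4C9 was higher in 24 and H2BC18 in 22, and without the smaller one H4C12, one of the 14, went from 20 to 1. With voom weights H2BC18 did not pass on day 1 of PMD-Sen or on days 2, 3 and 4 of Ca2+-Sen, and H4C9 did not on day 2 of Ca2+-Sen.

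In RS 19 of 23 members were higher, against 23.1% of all genes. The median log2 fold change of the members was 1.70. Without the smaller RS library 20 members were higher, and without the larger one 18. The RS calls of the genes named by the rule given with the methods were the same without either RS library.

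In PMD-Sen the number of members higher increased from 13 on days 0 to 2 to 20 on day 6. On day 0 13 of 23 members were higher, against 26.4% of all genes, on day 1 13, against 16.2%, and on day 2 13, against 13%. On day 3 the number was 16, against 11.2%, on day 4 19, against 12.2%, and on day 6 20, against 15.8%. On day 8 18 members were higher, against 12.8% of all genes, and on day 16 19, against 20.5%. The median log2 fold change went from 0.60 on day 0 to 1.47 on day 6 and was 1.303 on day 16. The day 2 count rested in part on the larger PMD-Sen day 2 library, without which 7 members were higher. With voom weights, an alternative that models the spread by read count and tested 22 members, 8 were higher on day 0 and 7 on day 2.

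From day 1 on the counts were lowest in Ca2+-Sen. On day 0 13 of 23 members were higher, against 26.7% of all genes, on day 1 9, against 7.23%, and on day 2 7, against 2.61%. On day 3 the number was 15, against 8.08%, on day 4 16, against 9%, and on day 6 17, against 13.1%. On day 8 16 members were higher, against 20.2% of all genes, and on day 16 15, against 8.17%. The median log2 fold change was 0.86 on day 0, lowest at 0.58 on day 1, highest at 1.06 on day 6 and 0.77 by day 16. The day 2 count was 2 without the larger Ca2+-Sen day 2 library, 4 without the smaller one and 3 without the larger Untreated library, and the day 1 count was 6 without the smaller day 1 library. With voom weights 2, 6, 10 and 7 of 22 members were higher on days 2, 3, 4 and 16. With only the groups compared in the fit, 2 were higher on day 2 and 11 on day 6.

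In DDR-Sen the median change was largest on day 0. On day 0 21 of 23 members were higher, against 18.1% of all genes, on day 1 20, against 13%, and on day 2 15, against 9.79%. On day 3 the number was 18, against 11%, on day 4 19, against 12%, and on day 6 20, against 17.7%. On day 8 17 of the 22 members tested there were higher, against 18.7% of all genes, and on day 16 20, against 21.4%. The median log2 fold change was 2.05 on day 0, dipped to 1.13 on day 2 and returned to 1.83 by day 16. With voom weights 9 of 22 members were higher on day 2. The share of all genes on day 1 is of 12162 genes, against 15040 on day 0, because the reads of fewer genes were solved. The same limit holds below where another inducer is compared with DDR-Sen on day 1. The medians of all genes lay between -0.05 and 0.03 in the 25 comparisons.

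The only 4 tests called lower fell on day 0 of PMD-Sen and Ca2+-Sen. On day 0 of PMD-Sen, where 28.9% of all genes were lower, H2BC9 fell by 1.64 on the log2 scale (SE 0.47, adjusted p = 0.0035). On day 0 of Ca2+-Sen, where 32.5% of all genes were lower, H2BC21, H2AC11 and H2AC13 fell by 0.69 (SE 0.21, adjusted p = 0.0053), 0.94 (SE 0.21, adjusted p = 2.8e-04) and 0.70 (SE 0.29, adjusted p = 0.038) on the log2 scale. The call of H2AC13 was lost without either Untreated library or the smaller Ca2+-Sen day 0 library, that of H2BC21 without the larger Ca2+-Sen day 0 library, and that of H2BC9 without the smaller PMD-Sen day 0 library. In the other 23 comparisons 0 members were lower, with limma by the adjusted or the unadjusted p or with voom weights. The share of all genes lower was 24.2% in RS, and in PMD-Sen 14.1%, 7.68%, 9.63% and 11.6% on days 1 to 4 and 15%, 13% and 23.1% on days 6, 8 and 16. In Ca2+-Sen it was 9.4%, 2.55%, 7.34% and 11% on days 1 to 4 and 13.7%, 22.9% and 8.15% on days 6, 8 and 16. In DDR-Sen it was 21.7% on day 0, 13.9%, 9.51%, 10.3% and 12.4% on days 1 to 4 and 18.3%, 18% and 25.1% on days 6, 8 and 16.

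**Figure D2:**
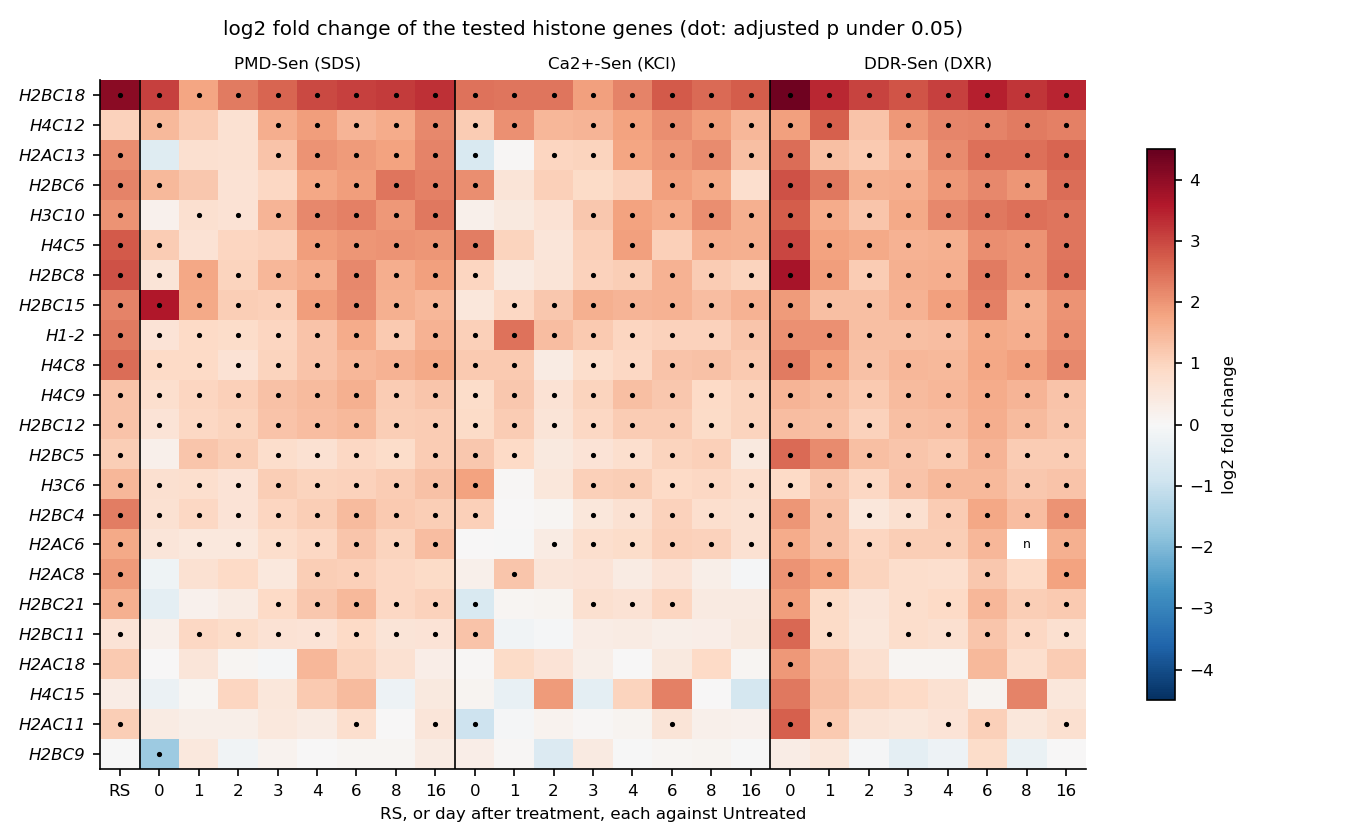
Log2 fold change against Untreated (colour, red higher and blue lower) of the 23 tested histone genes (rows, by median) in RS and on each day after treatment (columns), with a dot where the adjusted p is under 0.05 and n where a gene could not be tested. The row of H2BC18 is red with a dot in all 25 columns, and the blue cells with a dot are the 4 tests called lower.

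The H1 family was represented by 1 tested member, H1-2, a linker histone that binds where DNA enters and leaves the nucleosome. H1-2 (chr6:26055740-26056470, minus strand) had levels of 726 and 549 in Untreated and 3476 and 2882 in RS. On days 0 to 4, 6, 8 and 16 of PMD-Sen, in order, the pairs were 1061 and 871, 1115 and 1256, 1189 and 1048, 1259 and 1199, 1594 and 1497, 1848 and 2181.9, 1441 and 1427, and 1773 and 2006. Those of Ca2+-Sen, in the same order, were 1346 and 1341, 3742 and 3165, 1482 and 1804, 1482 and 1353, 1278 and 1178, 1279 and 1294, 1231 and 1373, and 1444 and 1593.
In DDR-Sen the pairs of H1-2 were 3023 and 2276, 2267 and 3046, 1450 and 1774, 1553 and 1639, 1606 and 1703, 2178 and 1922, 2011 and 1884, and 2847 and 2472. No library of H1-2 outside Untreated fell into the Untreated range, and the highest of all was on day 1 of Ca2+-Sen. There the log2 fold change was 2.45 (SE 0.14, adjusted p = 2.5e-13), and on the day before it was 1.09 (SE 0.14, adjusted p = 1.2e-07). In RS it was 2.32 (SE 0.14, adjusted p = 4.1e-14). H1-2 was the only H1 gene tested, and H1-4, the next by level, had a mean of 9.03. H1-4 had 4.01 and 6.53 normalized counts in Untreated and 43.8 and 26.5 on day 0 of Ca2+-Sen. H1-6, a testis form of H1, had a mean of 2.24.

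In the H2A family 60 of 124 tests were higher and 2 lower, beside 2.61% to 26.7% of all genes higher and 2.55% to 32.5% lower in single comparisons. H2AC6 (chr6:26124172-26124690, plus strand) had the highest level per kb of all members, and its normalized counts were 1868 and 1472 in Untreated, 5330 and 5454 in RS and 5472 and 5119 on day 0 of DDR-Sen. In Ca2+-Sen it was 1763 and 1603 on day 0 and 1710 and 1593 on day 1, and 3305 and 3611 on day 6. The pairs of days 0 and 1 lay inside the Untreated range and that of day 6 above it. H2AC6 was higher in 22 of 24 comparisons, and the log2 fold change was 1.70 (SE 0.09, adjusted p = 2.0e-15) in RS and -0.01 (SE 0.09, adjusted p = 0.97) on day 1 of Ca2+-Sen. Its reads on day 8 of DDR-Sen could not be worked out, so that no test was made there.

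H2AC11 and H2AC13, of the same family, stood apart between inducers on day 0. H2AC11 had 74.2 and 94.7 in Untreated, 596 and 490.1 on day 0 of DDR-Sen and 193 and 193 a day later. On day 0 of Ca2+-Sen it had 41.8 and 44.7, below both Untreated libraries. The log2 fold change of H2AC11 was 2.67 (SE 0.21, adjusted p = 6.5e-12) on day 0 of DDR-Sen, and the gene was higher in 9 comparisons, 4 without the smaller Untreated library. H2AC13 had 18.04 and 16.3 in Untreated, 9.55 and 13.6 on day 0 and 80.7 and 86.4 on day 16 of PMD-Sen. In DDR-Sen it had 111 and 93.7 on day 0 and 113 and 107 on day 16, where the log2 fold change was 2.62 (SE 0.29, adjusted p = 8.4e-09). The day 0 pairs after SDS and KCl lay below both Untreated libraries. From day 3 on H2AC13 was higher than Untreated in all 3 treatments. Of the 5 tested H2A members, H2AC18 was higher once and H2AC8 in 8 comparisons, and the reads of H2AC18 may be shared with its near-identical copy H2AC19.

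In the H2B family 192 of 250 tests were higher and 2 lower, where single comparisons had 2.61% to 26.7% of all genes higher and 2.55% to 32.5% lower. H2BC12 (chr6:27138293-27146858, minus strand) had 1295 and 1104 normalized counts in Untreated and 2513 and 3354 in RS. On days 0 to 4, 6, 8 and 16 of PMD-Sen, in order, its pairs were 1867 and 1757, 2275 and 2330, 2378 and 2411, 3040 and 2850, 3339 and 2949, 3364 and 3237, 2706 and 2469, and 2471 and 2767. Those of Ca2+-Sen were 2256 and 2087, 2850 and 2442, 1682 and 1938, 2298 and 2257, 2794 and 2494, 2691 and 2634, 2134 and 2195, and 2344 and 2462.
In DDR-Sen the pairs of H2BC12 were 3355 and 2951, 2893 and 3188, 2520 and 2425, 3172 and 2975, 3092 and 3244, 3864 and 3494, 3473 and 3022, and 2952 and 2740. All 50 libraries lay above both Untreated ones, and the pairs of PMD-Sen and DDR-Sen were highest on day 6 by their means. The log2 fold change of H2BC12 ran from 0.59 (SE 0.10, adjusted p = 8.4e-04) on day 2 of Ca2+-Sen to 1.62 (SE 0.10, adjusted p = 3.1e-13) on day 6 of DDR-Sen. The annotated span of H2BC12 contains H4C9 on the other strand, and whether the reads were counted by strand is not given in the sources used here, so the reads of the pair may be shared.

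H2BC21 had 393 and 389 in Untreated, 356 and 228 on day 0 and 1042 and 1125 on day 6 of PMD-Sen, and 1667 and 1245 on day 0 of DDR-Sen. It was higher in 16 comparisons, with a log2 fold change of 1.47 (SE 0.21, adjusted p = 3.2e-06) on day 6 of PMD-Sen. H2BC4 had 295 and 222 in Untreated, 1197 and 1344 in RS and 953 and 1121 on day 16 of DDR-Sen. On days 1 and 2 of Ca2+-Sen it was 274 and 249.9 and then 284 and 261, inside the Untreated range. H2BC4 was higher in the other 23 comparisons, 16 without the larger Untreated library, and in RS by 2.31 (SE 0.17, adjusted p = 2.4e-12).

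H2BC18 (chr1:149782689-149812370, minus strand) had the highest median log2 fold change of the 23 tested members, 2.97. Its mean reached the minimum of 10 through the groups where it was high, so that its place among them is no support for the rise. It started from a level in Untreated of 6.01 and 1.63, which are 3 and 1 reads, so the size of its fold changes is uncertain. It had 59.3 and 83.2 in RS and 93.6 and 85.1 on day 0 of DDR-Sen, where the log2 fold change was 4.39 (SE 0.46, adjusted p = 2.8e-09). Without the larger Untreated library it was higher in 22 comparisons. Its annotated span overlaps FCGR1A by 17916 bases. H2BC9 had 20.04 and 27.8 in Untreated, 20.7 and 26.7 in RS and 4.09 and 11.2 on day 0 of PMD-Sen. In all other groups the libraries of H2BC9 ran from 6.91 on day 2 of Ca2+-Sen to 43.6 on day 6 of DDR-Sen, and its median log2 fold change over the 25 comparisons was 0.06.

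Chosen after their values were seen, H2BC15 and H2BC8 had the largest single changes of the family after H2BC18. H2BC15 had 22.05 and 14.7 in Untreated and 253 and 214 on day 0 of PMD-Sen, a log2 fold change of 3.62 (SE 0.29, adjusted p = 5.7e-12). It was 61.3 and 61.6 a day later, and 43.8 and 15.4 on day 0 of Ca2+-Sen. H2BC8 had 104.2 and 93.1 in Untreated and 1346 and 1246 on day 0 of DDR-Sen, a log2 fold change of 3.70 (SE 0.21, adjusted p = 8.1e-15). On day 0 of PMD-Sen H2BC8 had 132 and 169.

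In the H3 family 44 of 50 tests were higher and none was lower, with limma by the adjusted or the unadjusted p or with voom weights. The shares of all genes were 2.61% to 26.7% higher and 2.55% to 32.5% lower. H3C6 and H3C10 encode H3.1, the form laid down behind the replication fork. H3C6 had 76.2 and 58.8 in Untreated, 228 and 246 on day 0 and 69.8 and 69.2 on day 1 of Ca2+-Sen. It was highest on that day 0, by 1.81 (SE 0.19, adjusted p = 1.0e-09), and back in the Untreated range a day later, at 0.05 (SE 0.19, adjusted p = 0.89). H3C10 had 36.1 and 40.8 in Untreated, 38.2 and 49.6 on day 0 and 192 and 210.0 on day 16 of PMD-Sen, and 329 and 209 on day 0 of DDR-Sen. Its log2 fold change was 0.18 (SE 0.22, adjusted p = 0.51) on day 0 and 2.36 (SE 0.22, adjusted p = 4.6e-10) on day 16 of PMD-Sen. H3C8, the third by level, was not tested, with 12.03 and 6.53 in Untreated and 3.29 and 1.74 on day 0 of DDR-Sen.

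In the H4 family 87 of 125 tests were higher, and 0 were lower, with limma by the adjusted or the unadjusted p or with voom weights. Of all genes 2.61% to 26.7% were higher and 2.55% to 32.5% lower, depending on the comparison. H4C8 (chr6:26285126-26285534, minus strand) had 319 and 191 in Untreated, 1444 and 1386 in RS and 1420 and 1128 on day 0 of DDR-Sen. It had 809 and 795 on day 16 of PMD-Sen and 295 and 342 on day 2 of Ca2+-Sen, the only pair that reached into the Untreated range. H4C8 was higher in 24 comparisons, in RS by 2.51 (SE 0.15, adjusted p = 1.6e-14), and on day 2 of Ca2+-Sen the difference was 0.36 (SE 0.15, adjusted p = 0.15). H4C9 (chr6:27139282-27139678, plus strand) had 335 and 219 in Untreated and 830.1 and 897 on day 6 of DDR-Sen, a log2 fold change of 1.67 (SE 0.16, adjusted p = 1.1e-09). H4C5 had 6.01 and 14.7 in Untreated and 79.1 and 88.5 on day 0 of DDR-Sen, and was higher in 18 comparisons, 9 without the smaller Untreated library. H4C12, with 2.00 and 11.4 in Untreated and 50.8 and 29.1 on day 1 of DDR-Sen, was higher in 20, but in 1 without the smaller Untreated library and in 25 without the larger one. The Untreated levels of H4C5 rest on 3 and 9 reads and those of H4C12 on 1 and 7. H4C15 scattered from 1.06 to 47.4 within and between groups and passed no test, with SEs of 1.34. Its span overlaps H2AC19 and H3C15, and H4C14 is a near-identical copy, so its reads are uncertain.

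A second question was whether the inducers differ on the same day, which needs no Untreated library. On day 0, 19 of 23 members were lower in PMD-Sen than in DDR-Sen, where 27.2% of all genes were lower, and 1, H2BC15, was higher, against 28.7%. On day 1, 13 were lower, against 15.3%, on day 2, 4, against 8.63%, and on day 3, 2, against 3.01%. The numbers were 1 on day 6, against 0.27%, and 2 on day 16, against 1.68%. With voom weights 2 were lower on day 2, 1 on day 3, 0 on day 6 and 3 on day 16. The median of the members went from -1.87 on day 0 to -0.86 on day 1 and lay between -0.31 and -0.09 from day 2 on. The members with the largest differences on day 0 were H2BC8, at -3.11 (SE 0.21, adjusted p = 7.2e-14), and H2AC13, at -3.05 (SE 0.29, adjusted p = 1.5e-10). H2BC15 differed the other way, at 1.69 (SE 0.29, adjusted p = 1.2e-05). With limma 0 members passed on days 4 and 8, where 0.357% and 0.305% of all genes were lower and 0.364% and 1.5% higher. On day 4 an unadjusted p under 0.05 was reached by 3 members lower and 1 higher, and on day 8 by 7 lower, and limma with voom weights called 0 on both days.

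Between Ca2+-Sen and DDR-Sen, members differed on all 8 days. On day 0, 17 members were lower in Ca2+-Sen, against 31% of all genes, and 1, H3C6, was higher, against 29.5%. On day 1, 12 were lower, against 10.5%, on day 2, 5, against 4.97%, on day 3, 4, against 2.08%, and on day 4, 1, against 1.12%. On day 2 voom weights called 3 in place of the 5. The number then was 7 on day 6, against 1.65%, 8 on day 8, against 12.8%, and 12 on day 16, against 11.3%. The median was -1.34 on day 0, nearest to 0 at -0.35 on day 4, and -0.80 by day 16. On day 0 H2AC11 differed by -3.62 (SE 0.21, adjusted p = 1.6e-15), H3C6 by 0.90 (SE 0.19, adjusted p = 1.2e-04) and H2AC6 by -1.65 (SE 0.09, adjusted p = 5.2e-16). On day 16 H2BC4 differed by -1.31 (SE 0.17, adjusted p = 9.5e-07) and H4C8 by -0.98 (SE 0.15, adjusted p = 8.2e-06).

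Between PMD-Sen and Ca2+-Sen on day 0 the share of members lower was near that of all genes, and the share higher was below it. On that day, 8 members were lower in PMD-Sen, against 30.9% of all genes, and 3 higher, against 33.1%. The log2 fold change of H2BC15 was 3.11 (SE 0.29, adjusted p = 8.1e-11) and that of H2AC11 1.301 (SE 0.21, adjusted p = 2.5e-06), while H2BC9 and H3C6 were among the 8. On day 1, 5 members were higher, against 11% of all genes, and H1-2 alone was lower, against 8.57%, at -1.54 (SE 0.14, adjusted p = 1.4e-08). On day 2, 4 were higher, against 8.2%, and H1-2 again was lower, against 4.49%, at -0.55 (SE 0.14, adjusted p = 0.013). From day 3 to day 8 limma called 0 members. The share of all genes called higher on days 3, 4, 6 and 8 was 0.0395%, 0.0724%, 0.124% and 10.9%, and that called lower 0.125%, 0.0329%, 0.085% and 7.69%. At an unadjusted p under 0.05, 3, 7, 10 and 4 members were higher on these days and 0 lower, and with voom weights 0 were called. On day 16, 9 members were higher in PMD-Sen, against 9.79% of all genes, H2AC6 by 0.67 (SE 0.09, adjusted p = 4.6e-06) and H3C10 by 0.76 (SE 0.22, adjusted p = 0.01).

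**Figure D3:**
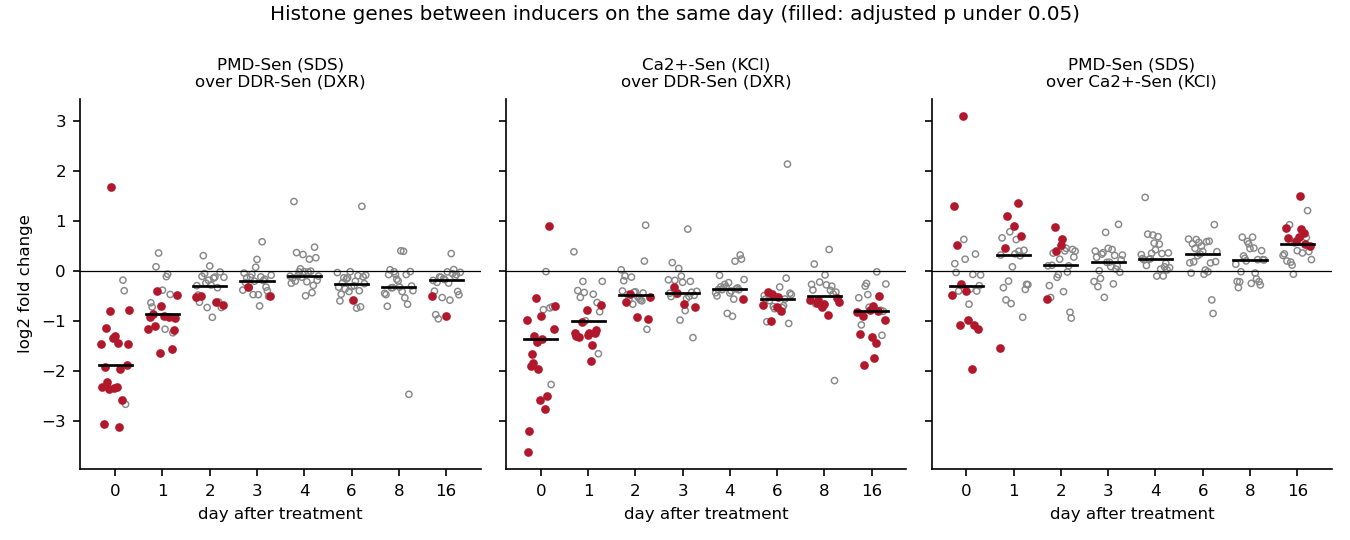
Log2 fold change of each tested histone gene between 2 inducers on the same day (y axis) against the day after treatment (x axis), filled where the adjusted p is under 0.05, with a bar at the median. On day 0 the medians are -1.87 for PMD-Sen over DDR-Sen and -1.34 for Ca2+-Sen over DDR-Sen, and by day 16 they are -0.18 and -0.80.

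Day 16 was also compared with RS. In PMD-Sen 6 of 23 members were lower than in RS, where 10.4% of all genes were lower. The log2 fold change there was -1.20 (SE 0.17, adjusted p = 1.5e-05) for H2BC4 and -0.82 (SE 0.15, adjusted p = 2.3e-04) for H4C8. In Ca2+-Sen 14 were lower, against 13.8%, H2BC8 at -1.85 (SE 0.21, adjusted p = 4.7e-08) and H2AC6 at -1.001 (SE 0.09, adjusted p = 6.1e-10). In DDR-Sen limma called 0 members, against 2.06% of all genes lower and 1.18% higher, and at an unadjusted p under 0.05, 1 was lower and 1 higher, with 0 called by voom weights. These 20 tests lower became 5 when only the groups compared were fitted, 27 without the smaller RS library and 14 without the larger one.

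Within each inducer day 16 was compared with day 0, where many genes of all kinds differed, and the inducers' changes were not tested against each other. In PMD-Sen 14 members were higher on day 16, against 29.4% of all genes, and 1, H2BC15, lower, against 30.2%. The largest rise was that of H2AC13, by 2.77 (SE 0.29, adjusted p = 9.2e-10), followed by H3C10, by 2.18 (SE 0.22, adjusted p = 2.8e-10). The call of H2BC4 in that comparison, 0.43 (SE 0.17, adjusted p = 0.033), rested on the larger PMD-Sen day 16 library, without which it was -0.01. In Ca2+-Sen 6 were higher, against 31.8%, with H2AC13 first, at 2.06 (SE 0.29, adjusted p = 3.2e-07). There 4 were lower, against 26.9%, and H3C6 was among them, at -1.04 (SE 0.19, adjusted p = 1.8e-05). These shares are below those of all genes. In DDR-Sen 5 of 23 were lower, near the 20.8% of all genes, H2AC11 the most, at -1.96 (SE 0.21, adjusted p = 7.4e-09). With limma 0 were higher there, by the adjusted or unadjusted p or with voom weights, against 19.7%.

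Many H2A and H2B genes lie head to head and share the sequence between them. Among the 66 members 12 pairs on opposite strands, 11 of them of H2A and H2B, start 194 to 248 bases apart, with the strand of 5 members taken from GENCODE v29 because the promoter table did not hold them. Some partners were far apart in level. Per kb of coding sequence H2BC12 stood at 6990 and its partner H2AC12, which was not tested, at 5.21. H2BC21 stood at 1861 and its partner H2AC20 at 16.6, and H2BC4 at 1477 and its partner H2AC6 at 8399. The v29 transcript is 2194 bases for H2BC21 and 390 for H2AC20, with 378 and 387 coding, so that gap would be smaller per kb of transcript. H2BC11 and H2AC11 were at 475 and 338, and H2BC13 and H2AC13 at 4.68 and 147. Where both partners were tested, the median log2 fold changes were 1.025 and 0.99 for H2BC4 and H2AC6, 1.596 and 0.88 for H2BC8 and H2AC8, and 0.62 and 0.46 for H2BC11 and H2AC11.

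The 43 members not tested had a summed level of 115 ± 1.21 (SD, n = 2) in Untreated. In the other groups the sum was 0.726 to 1.32 times that, except on day 0 of DDR-Sen, where it was 251 ± 53.2, or 2.18 times. Of these 43, 29 had a mean of 1 to under 10 and 14 a mean under 1. H2AC1, H2BC1 and H2AC15 had 0 reads in any of the 52 libraries, which allows up to 3 reads in all for counting error alone. H2AC1 and H2BC1 are testis forms. H4C14, chosen after its values were seen, had 0 reads in 5 libraries and 15.8 and 103.6 normalized counts on day 0 of DDR-Sen. The highest group mean was on day 0 of DDR-Sen for 12 of the 23 tested members and 9 of the 43 others, and in Untreated for 0 of the former and 5 of the latter (H1-1, H4C1, H3C3, H2AC14 and H3C12). How often any gene is highest in these groups was not counted, and a member can have reached the test through its highest group. These numbers therefore only describe the members.

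The members that reached the test and those that did not were set side by side by what RefSeq and GENCODE hold for them. TATAAA was in 15 of the 23 promoters of tested members and in 26 of 38 of the others, CCAAT in 19 and 33, and the octamer in 11 and 15. An annotated transcript that runs more than 100 bases past the stem-loop was held by 14 of 22 tested members with a v29 transcript and by 5 of 40 others. More than 1 RefSeq transcript was annotated for 6 of 23 and 1 of 43. How the libraries were enriched for messenger RNA is not given in the sources used here. How far the kind of 3' end decided which members were counted was not tested.

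Genes that regulate histone genes and messages were lower more often than higher. Of 30 such genes 28 were tested, and in 690 tests 45 were higher and 271 lower, where 2.61% to 26.7% of all genes were higher and 2.55% to 32.5% lower by comparison. SLBP was lower in 20 of 24 comparisons, with 1786 and 2006 in Untreated and 984 and 925 on day 0 of DDR-Sen, a log2 fold change of -0.99 (SE 0.08, adjusted p = 6.8e-11). E2F1, which drives entry into S phase, was lower in 24 of 25, with 665 and 686 in Untreated and 282 and 328 in RS. NPAT had 521 and 521 in Untreated, 401 and 510.0 in RS and 473 and 549 on day 0 of DDR-Sen, and was higher once and lower once, calls that were both lost without either Untreated library. The chaperone NASP, which carries H3 and H4, was lower in 25 of 25. Of the 45 tests higher, 21 were of HINFP, a factor that binds H4 promoters, with a log2 fold change of 1.22 (SE 0.10, adjusted p = 5.0e-12) on day 0 of PMD-Sen. NASP and HINFP were chosen after their values were seen. Without the smaller Untreated library the regulators' tests higher were 22.

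Variant histones were mostly lower as well. Of 15 genes 12 were tested, and of 294 tests 32 were higher and 169 lower, against the same 2.61% to 26.7% of all genes higher and 2.55% to 32.5% lower. Without the larger Untreated library 21 were higher. H2AZ1, whose protein replaces H2A at promoters, had 6810 and 6301 in Untreated and 2079 and 1831 in RS and was lower in 24 of 25 comparisons. H2AJ had 1405 and 1279 in Untreated and 1728 and 2341 in RS and was higher in 17 of 24, 10 without the larger Untreated library, and on day 6 of PMD-Sen by 0.68 (SE 0.10, adjusted p = 9.7e-06).

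Most tests of the S phase genes, whose products copy DNA, were lower. All 16 were tested, and of 394 tests 357 were lower and 2 higher, against 2.55% to 32.5% of all genes lower and 2.61% to 26.7% higher by comparison. Their median log2 fold change was between -2.52 and -0.59 in the 25 comparisons. RRM2, a subunit of the enzyme that makes deoxynucleotides, had 4028 and 4439 in Untreated and 61.4 and 212 in RS, and its log2 fold change was -6.39 (SE 0.41, adjusted p = 1.7e-13) on day 1 of DDR-Sen. PCNA, the sliding clamp of the DNA polymerases, was lower in 15 of 23 comparisons. The 2 tests higher were CDC6 on day 0 of PMD-Sen and PCNA on day 0 of DDR-Sen, where PCNA had 10177 and 7595, against 2782 and 2972 in Untreated. Without the smaller Untreated library or the smaller PMD-Sen day 0 library 1 of these was left, and CDC6 was chosen after its values were seen. On day 0 of DDR-Sen the summed level of the S phase genes was 15226 ± 2356 (SD, n = 2), against 26940 ± 1616 in Untreated and 5675 ± 1020 in RS. PCNA, at the 10177 and 7595 given above, is part of that day 0 sum. By calls 14 of the 16 genes were lower there, against 21.7% of all genes, with a median log2 fold change of -2.43. In RS 16 of 16 were lower, against 24.2%, with a median of -2.23, so the order of the sums is not that of the medians.

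**Figure D4:**
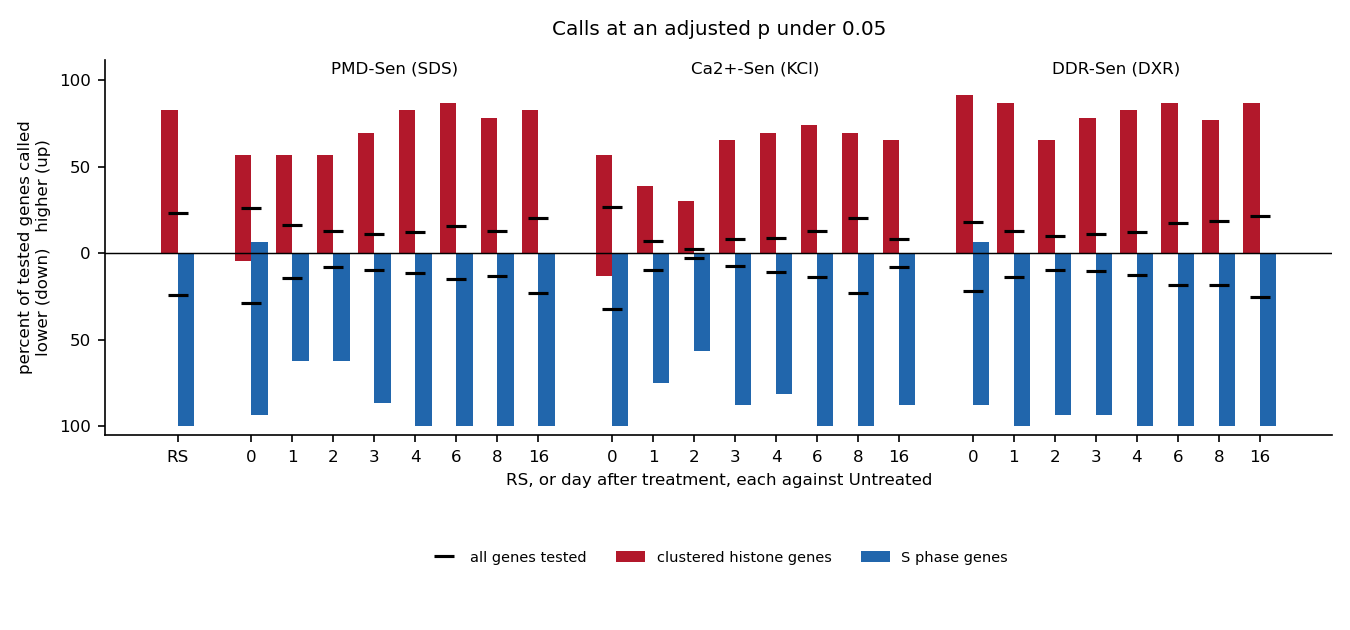
Percent of tested genes called higher (up) and lower (down) than Untreated at an adjusted p under 0.05 (y axis) for the histone genes (red), the 16 S phase genes (blue) and all genes tested (black marks), in RS and on each day after treatment (x axis). The red bars point up in all 25 comparisons, with small bars down on day 0 of PMD-Sen and Ca2+-Sen, and the blue bars point down except for 1 gene on day 0 of PMD-Sen and of DDR-Sen.

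Over the 26 group means, with 11600 genes searched, the gene most like H2BC12 was H4C9 (Pearson r = 0.989), which lies within its annotated span. The genes most like H2AC13 were EZH1 (r = 0.966), a subunit of a Polycomb complex, and H3C10 (r = 0.960). H2BC4 was most like H2BC8 (r = 0.920) and H4C8 most like H4C5 (r = 0.890), while H1-2 was most like SLC7A8 (r = 0.833). The 26 points share their libraries and scaling with all genes, and these values are descriptions.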

How the data were processed

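RNA was sequenced from 52 WI-38 libraries in 26 groups of 2. The labels name Trim Galore, HISAT2, HTSeq, featureCounts and DESeq2 and the build GRCh38 (hg38), without versions, roles or strand setting. The authors deposited 52 tables, of which 25 are distinct, each the DESeq2 output of 1 comparison over 4 libraries. The value used was the deposited mean normalized read signal per gene. The authors' fold changes, standard errors and p-values in those tables were not used.

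Because each mean is a sum of whole reads over 4 times a size factor, and the 2 Untreated libraries recur in all 25 tables, the reads of each library were worked out from the means. A unique pair of whole reads was found for 89.6% to 100% of genes by table (median 99.0%), and for 3430 of 3432 entries of the histone genes. The other 2 entries are H2AC6 on day 8 of DDR-Sen, which was dropped from the fit. The reads solved exactly held 31.8% to 100% of a library's reads, with the least in DDR-Sen day 1. Libraries could not be tied to replicate numbers and are named by size, from 15.3 to 55.5 M counted reads. Rows that name no gene (1 in each of 23 tables) were left out.

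Levels were scaled by the median of ratios over genes above 0 in all libraries. Genes with a mean of at least 10 were tested with limma 3.58.1 (R 4.3.3, trend) on log2(normalized count + 1) over all 26 groups, with Benjamini-Hochberg adjustment over all genes of a comparison. Calls were made where the adjusted p was under 0.05. The scripts were tested on simulated data. Alternatives were other scalings, filters, pseudocounts, voom weights, fits of only the groups compared, a log2 fold change of at least 1, and leaving out each library. Stem-loops were searched in GENCODE v29 transcripts, and promoters and coordinates came from RefSeq (GRCh38.p14).

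Members and gene lists were chosen with earlier results of these data known. Genes were named by a rule: the 3 members of each family with the highest mean level, the 3 tested members with the highest and the 3 with the lowest median log2 fold change over the 25 comparisons, and SLBP, NPAT, E2F1, H2AJ, H2AZ1, PCNA and RRM2, with 1 further gene that is not reported here. Others named with values were chosen after their values were seen.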

Additional observations from a re-analysis of the deposited data

Results flagged for a closer look

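In 3 genes the level fell on day 0 of Ca2+-Sen and rose on day 0 of DDR-Sen, each against Untreated, and the difference between the inducers was itself tested with limma. Because the genes were picked by these opposite calls, a large difference follows from the choice and is no further support. H2AC11 differed by -3.62 on the log2 scale (SE 0.21, adjusted p = 1.6e-15), from -0.94 in Ca2+-Sen and 2.67 in DDR-Sen. H2AC13 differed by -3.20 (SE 0.29, adjusted p = 3.9e-11), from -0.70 and 2.50, and its lower call in Ca2+-Sen was lost without either Untreated library or the smaller Ca2+-Sen day 0 library. H2BC21 differed by -2.57 (SE 0.21, adjusted p = 4.2e-12), from -0.69 and 1.88, and its lower call was lost without the larger Ca2+-Sen day 0 library. The cause was not tested.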

How the results depend on the processing

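No paired analysis was possible because the reads recovered for a library could not be tied to its replicate number. The mean of each table alone was not run as an alternative. With 2 libraries a group, a lone library left in a group was assumed to vary like the other groups, and the comparisons with Untreated share its 2 libraries, which had the fewest reads.

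Tests called higher than Untreated numbered 408, against 408 with scaling by totals, 412 by upper quartiles, 408 and 403 with pseudocounts of 0.5 and 5, 320 with voom weights (22 members tested) and 330 with only the groups compared. A minimum mean of 1 gave 431 (52 members tested) and one of 100 gave 275 (13 tested, so fewer could be called). Upper quartiles moved the median of all genes to -0.10 to 0.08. The 4 tests lower became 15 with a minimum of 1, 2 with 100, 2 with only the groups compared and 1 when a log2 fold change of at least 1 was also asked. That last condition left 318 of the 408 higher than Untreated, where 0.551% to 9.26% of all genes were higher under it by comparison. It left 6 of 23 higher and 55 of 117 lower between inducers, 12 of 20 lower against RS and 11 of 20 higher on day 16 against day 0. For these other comparisons the share of all genes under that condition is not given. Against RS, voom weights called 1 higher in place of 0, and only the groups compared left 5 lower.

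The share of all genes under each of these settings is not given by day, so the counts that follow describe the members alone. By day, a minimum of 100 left 8, 12 and 13 members higher on days 0, 4 and 6 of PMD-Sen, 5, 4 and 10 on days 1, 2 and 8 of Ca2+-Sen, and 13, 13, 13, 11 and 13 on days 0, 1, 6, 8 and 16 of DDR-Sen. Voom weights left 8 and 7 on days 0 and 2 of PMD-Sen, 2, 6, 10 and 7 on days 2, 3, 4 and 16 of Ca2+-Sen, and 9 on day 2 of DDR-Sen. With only the groups compared, 2 and 11 were left on days 2 and 6 of Ca2+-Sen. The cause was not tested.

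Leaving out 1 library at a time gave 360 to 409 tests higher and 3 to 4 lower than Untreated, 17 to 25 higher and 109 to 119 lower between inducers, 14 to 27 lower against RS, and 17 to 20 higher and 9 to 11 lower on day 16 against day 0. It gave 7 to 13 members higher on day 2 of PMD-Sen and 2 to 8 on day 2 of Ca2+-Sen. The tests higher were 22 to 46 for regulators, 21 to 33 for variants and 1 to 2 for S phase genes. H2BC4, day 16 against day 0 of PMD-Sen, changed sign to -0.011 without the larger PMD-Sen day 16 library (limma adjusted p = 0.96) and was 0.87 without the smaller one.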

Other observations

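H2BC5 and H2BC11, chosen after their values were seen, were lower on day 16 than on day 0 of Ca2+-Sen, with log2 fold changes of -0.76 (SE 0.15, limma adjusted p = 6.3e-05) and -0.87 (SE 0.19, adjusted p = 2.4e-04). Both were also lower in DDR-Sen, at -1.41 (SE 0.15, adjusted p = 5.7e-09) and -1.87 (SE 0.19, adjusted p = 3.1e-09). In PMD-Sen H2BC5 went the other way, at 0.90 (SE 0.15, adjusted p = 4.9e-06), and H2BC11 was at 0.38 (SE 0.19, adjusted p = 0.089).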
